A study of Mus musculus with 6 samples.

Results

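In splenic CD4+ T cells, 9 genes of the transforming growth factor beta (TGF-beta) pathway were examined: the ligand Tgfb1, the receptors Tgfbr1 and Tgfbr2, the signal-carrying Smad2, Smad3 and Smad4, the inhibitory Smad7, and the corepressors Ski and Skil. The genes were listed by name and not by a measured value, but with earlier results of these data known. Each name matched 1 of the 39171 rows in every library table. Messenger RNA was sequenced from CD4+ T cells that had been isolated from spleen with a magnetic EasySep kit, with 1 library for each of 6 premenopausal C57BL/6 mice. The Control group (n = 3) has no dose of angiotensin II in the labels, which give a treatment time of 2 weeks for both groups. The AngII group (n = 3) received angiotensin II, a peptide that raises blood pressure, at 800 ng/kg/min from an osmotic minipump for 14 days, and the mice of both groups were 10 weeks old at the start. The design text calls the mice of both groups premenopausal, and no label says whether Control mice carried a pump. The p-values below measure the spread between these 6 libraries only. By its title the study concerns protection of premenopausal females from hypertension.

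TGF-beta is secreted in a latent form and, once released, binds a type II receptor that recruits and activates a type I receptor. The activated type I receptor phosphorylates SMAD2 and SMAD3, which join SMAD4 and enter the nucleus to induce or repress target genes, while SMAD7 blocks the receptor and SKI and SKIL silence the SMAD complex. In CD4+ T cells the pathway restrains activation, holds back Th1 genes and takes part in making regulatory and Th17 cells.

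The values are FPKM, fragments scaled to transcript length and library size, so levels of different genes can be set side by side. The tables carry no counts. Of the low values, 39.2% to 68.4% per library lay within 0.05 (log2) of a ratio of 1 to 3 fragments to those of Control 1. The value of 1 fragment was set at the commonest ratio of the same values. The share expected without such steps was not computed, so the percentages cannot show that the steps are fragments. If they are, 1 fragment was worth 0.891 to 0.978 of that in Control 1, but the depth itself is unknown. Cd4 averaged 228.6 ± 25.5 FPKM over Control and 228.1 ± 12.5 over AngII libraries (SD, n = 3), and Cd8a, the marker of cytotoxic T cells, at 0.855 ± 0.194 and 0.873 ± 0.696. Markers of other spleen cells were present in every library. The summed FPKM of 11 macrophage markers ran from 1159 to 1976 in Control and from 1431 to 2818 in AngII, that of 10 platelet markers from 96.9 to 297 and from 187 to 248, and that of 7 B cell markers from 655 to 1148 and from 582 to 945. In such bulk samples a lower level of a transcript can mean fewer cells that express it or less RNA per cell, and these cannot be told apart.

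All members were expressed in every library, from a mean of 13.0 FPKM for Tgfbr1 to 142 FPKM for Tgfb1. None differed between AngII and Control past the test applied to all genes. The test was limma, a linear model on log2(FPKM + 1) with Benjamini-Hochberg adjustment over 11842 genes whose mean reached 1 FPKM. Of the 9 members, 0 passed an adjusted p of 0.05, where 0.0338% of all genes did. Among those genes were mt-Co2 and mt-Nd4, with 15408 to 17632 and 5454 to 6248 FPKM in Control and 0 in every AngII library. Whether these zeros come from the cells or from the processing of the values was not tested, so that share is a poor yardstick. One member, Tgfbr1, was higher in each AngII library than in any Control library, by a log2 fold change of 0.16, and it alone had an unadjusted limma p under 0.05, as 1.76% of all genes had. The median log2 fold change of the 9 members was -0.01, beside -0.004 for all genes tested.

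**Figure D1:**
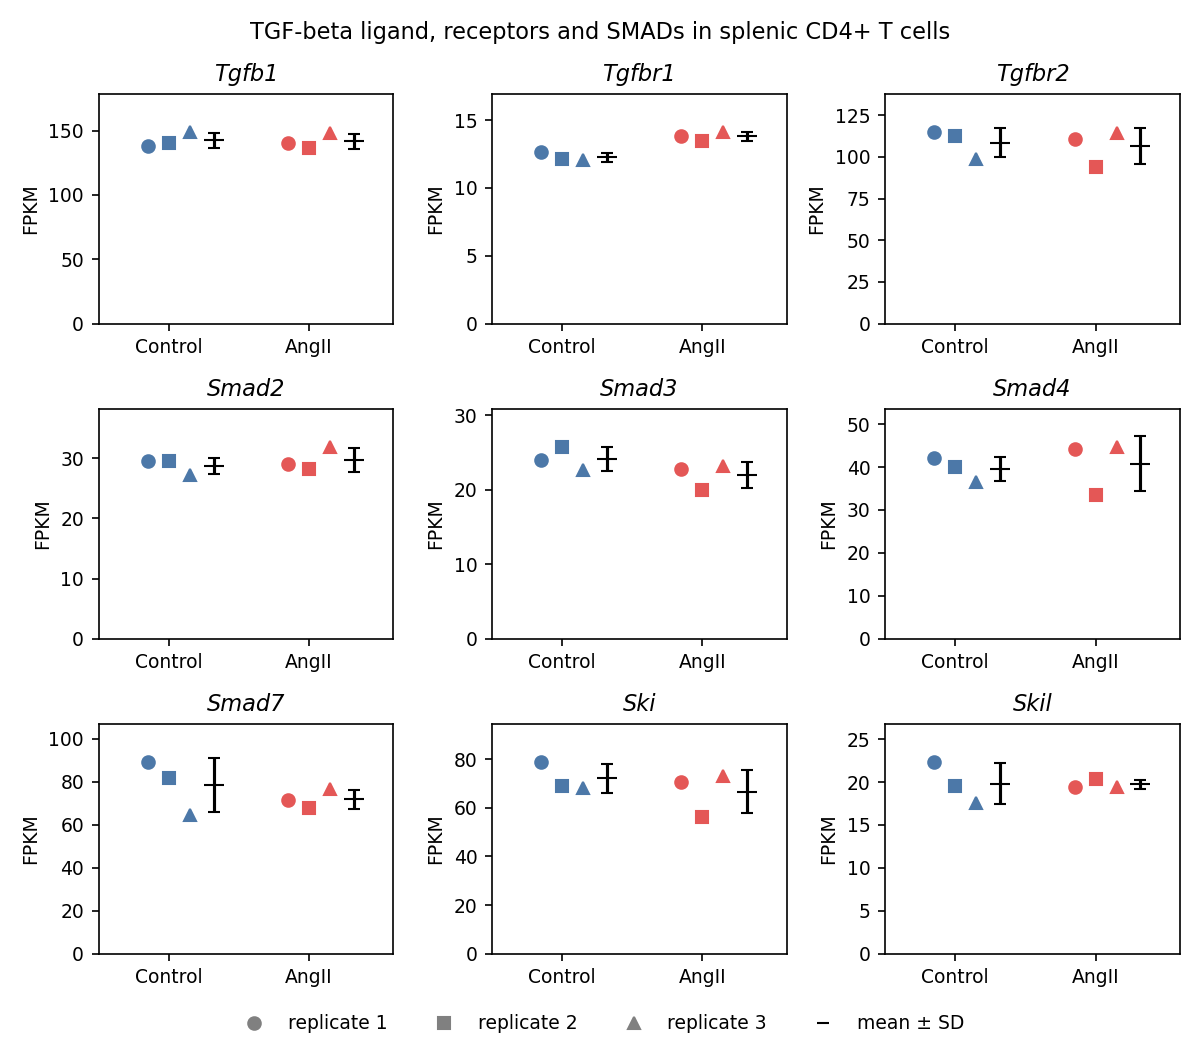
FPKM of each of the 9 genes (y axes from 0, 1 scale per gene) in the 3 Control and 3 AngII libraries; symbols give the replicate number and the bars beside them the mean ± SD of each group. Only for Tgfbr1 do the 2 groups not overlap, with 12.04 to 12.6 FPKM in Control and 13.5 to 14.1 in AngII.

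Tgfb1, the ligand, was the most abundant member and the steadiest. It read 138.4, 140.1 and 149.0 FPKM in Control replicates 1 to 3, against 140.7, 136.5 and 148.0 in the same order for AngII. The groups overlapped, and 95.3% of the genes tested had a lower mean. The log2 fold change was -0.01 with a 95% interval from -0.15 to 0.14 (SE 0.060, limma adjusted p = 0.9999). The gene lies on chromosome 7 (25687002 to 25705077, GRCm38, plus strand) with 5 annotated transcripts. The other ligand genes of the family were near the bottom of the scale, Tgfb3 at a mean of 0.691 FPKM over the 6 libraries and Tgfb2 at 0.0790.

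Tgfbr1, the type I receptor kinase that phosphorylates the SMADs, was the lowest of the 9 members. The Control libraries read 12.6, 12.1 and 12.04 FPKM, the AngII libraries 13.8, 13.5 and 14.1. The lowest AngII library lay above the highest Control library, a separation that 2.36% of all genes tested showed in this direction, 3.48% in the other and 5.84% in either. Here it was 1 of 9 members. The Control mean was 12.3 ± 0.32 FPKM and the AngII mean 13.8 ± 0.323 (SD, n = 3), a ratio of 1.13. The limma log2 fold change was 0.16 (SE 0.055, 95% interval 0.03 to 0.29), with an unadjusted p of 0.0271 and an adjusted p of 0.9999 over all genes, and 16.4% of all genes moved at least as far in either direction. In the authors' deposited table the gene had p = 0.2252 and q = 0.999918 from the authors' own test.

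Tgfbr2, the type II receptor that binds the ligand first, was far more abundant than Tgfbr1. It read 115.1, 112.3 and 98.6 FPKM in Control against 110.6, 94.2 and 114.4 in AngII. Control replicate 3 and AngII replicate 2 were the low libraries, and the groups overlapped. Its log2 fold change was -0.03 (95% interval -0.28 to 0.21, limma adjusted p = 0.9999). Within each library the ratio of Tgfbr2 to Tgfbr1 was 9.11, 9.27 and 8.19 in Control and 8.004, 6.98 and 8.09 in AngII. These ratios did not overlap between the groups, a description chosen after the values were seen and one that contains the Tgfbr1 difference already given.

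The promoters of both receptor genes are shown because Tgfbr1 was the member whose groups separated and Tgfbr2 encodes its partner on the same complex. Each run is the 250 bases before the start of transcription on GRCm38.p6, 5′ to 3′ on the gene's own strand, from RefSeq, with each match to the GC box GGGCGG on either strand in capitals. The Tgfbr1 window is chr4:47352972-47353221 (plus strand) and the Tgfbr2 window chr9:116175364-116175613 (minus strand). RefSeq gave 2 different windows for Tgfbr1, of which the one nearest the annotated gene start is shown.
Tgfbr1: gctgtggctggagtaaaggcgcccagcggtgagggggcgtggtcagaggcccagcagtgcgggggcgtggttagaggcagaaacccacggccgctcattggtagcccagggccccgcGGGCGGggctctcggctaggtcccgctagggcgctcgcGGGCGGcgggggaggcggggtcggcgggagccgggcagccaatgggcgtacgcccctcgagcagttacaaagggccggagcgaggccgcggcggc
Tgfbr2: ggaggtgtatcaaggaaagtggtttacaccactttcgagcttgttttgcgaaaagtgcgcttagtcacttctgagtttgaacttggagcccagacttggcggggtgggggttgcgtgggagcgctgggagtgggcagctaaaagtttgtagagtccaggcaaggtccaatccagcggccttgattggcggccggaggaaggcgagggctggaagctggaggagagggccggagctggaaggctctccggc

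The Tgfbr1 window holds 74.8% G and C and 2 GC boxes, the Tgfbr2 window 58.4% and 0. Among 32851 mouse promoter windows of the same length, 95.8% had a lower share of G and C than Tgfbr1 and 67.8% a lower share than Tgfbr2, and 32.7% held a GC box. A further motif, CAGAC, the short box that SMAD proteins can bind, was matched once on either strand in the Tgfbr2 window and not in the Tgfbr1 window, and 42.2% of all windows hold it. The letters TATAAA were in neither window and in 12.4% of all. These matches describe the letters of the windows only. Of the 9 members, 5 had a promoter entry that could be used, and in the windows of Tgfb1, Smad3 and Ski the GC box was found 5, 2 and 5 times. The start used for Ski lay 57 bases from the annotated gene start, so its window takes in bases of the annotated gene.

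Smad2 and Smad3, the receptor-activated SMADs of this branch, were close in level. Smad2 read 29.6, 29.6 and 27.2 FPKM in Control against 29.1, 28.2 and 31.9 in AngII. Smad3, the one of the pair that binds DNA directly, read 23.9, 25.7 and 22.6 FPKM in Control against 22.8, 20.0 and 23.1 in AngII. In both genes the groups overlapped, with the highest Smad2 value in AngII replicate 3 and the lowest Smad3 value in AngII replicate 2. Log2 fold changes were 0.05 for Smad2 (95% interval -0.13 to 0.22) and -0.13 for Smad3 (-0.33 to 0.07), each with a limma adjusted p of 0.9999. The Smad3 difference was -0.07 without AngII replicate 2, -0.08 without Control replicate 2 and -0.06 scaled to the summed CD4 T cell markers. The ratio of Smad2 to Smad3 within a library was 1.24, 1.15 and 1.202 in Control and 1.28, 1.41 and 1.38 in AngII. The ratios did not overlap between the groups, while neither gene alone separated them. This pair was singled out after its values were seen, so no test is given. How often the ratios of other gene pairs separate the groups was not counted.

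Smad4, the common partner that both activated SMADs need, varied more than either. It read 42.1, 40.003 and 36.6 FPKM in Control against 44.2, 33.4 and 44.7 in AngII, so the AngII group held both the highest libraries and the lowest. The log2 fold change was 0.03 with a 95% interval from -0.28 to 0.34 (SE 0.127, limma adjusted p = 0.9999). The SMADs of the bone morphogenetic protein branch were present at lower levels, Smad5 at 11.9 ± 0.674 and 13.1 ± 1.12 FPKM and Smad1 at 10.4 ± 0.514 and 9.85 ± 1.35 (Control and AngII, SD, n = 3). Smad9 of that branch (mean 0.00467 FPKM) and the second inhibitory gene, Smad6 (0.124 FPKM), lay under the filter.

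Smad7, which blocks the type I receptor and is itself induced by the pathway, had the widest spread of the members in Control. It read 89.2, 81.8 and 64.4 FPKM there against 71.4, 67.6 and 76.5 in AngII. The AngII values fell inside the Control range. The log2 fold change was -0.11 (SE 0.129, 95% interval -0.43 to 0.20, limma adjusted p = 0.9999). It moved to -0.25 without Control replicate 3 (limma unadjusted p = 0.0277, adjusted p = 1), to -0.02 without Control replicate 1 and to -0.07 without AngII replicate 2, so the size rests on single libraries. With 75.1 FPKM on average, Smad7 mRNA was more abundant than that of Smad2 and Smad3. It came to 1.67, 1.48 and 1.29 times their sum in Control and 1.38, 1.40 and 1.39 times in AngII. Protein levels were not measured.

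**Figure D2:**
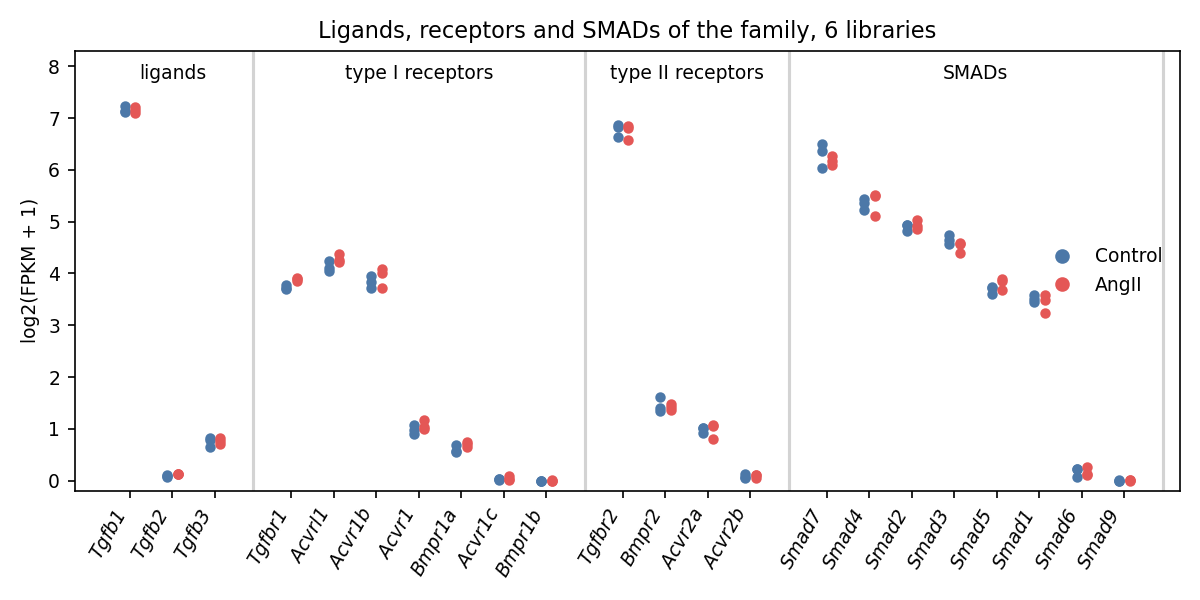
Levels of 3 ligand genes, 7 type I receptors, 4 type II receptors and 8 SMAD genes as log2(FPKM + 1) on the y axis, with 1 point per library (blue Control, red AngII). Tgfb1, Tgfbr2 and Smad7 stand highest in their classes, and Tgfbr1 lies beside Acvrl1 and Acvr1b.

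Ski and Skil encode related corepressors that bind SMAD complexes on DNA and are broken down when the pathway is active. Ski read 78.9, 69.0 and 68.3 FPKM in Control against 70.6, 56.3 and 73.0 in AngII, with AngII replicate 2 lowest. Skil read 22.4, 19.5 and 17.6 FPKM in Control against 19.4, 20.4 and 19.4 in AngII, all of the latter inside the Control range. The log2 fold changes were -0.12 for Ski (95% interval -0.40 to 0.17) and -0.0002 for Skil (-0.23 to 0.23), with a limma adjusted p of 0.9999 each. Ski was 3.53, 3.53 and 3.89 times as abundant as Skil in the Control libraries and 3.64, 2.77 and 3.76 times in the AngII libraries. The Ski difference was -0.0025 without AngII replicate 2, -0.05 without Control replicate 1 and -0.04 scaled to the summed CD4 T cell markers, so its size rests on single libraries of both groups.

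**Figure D3:**
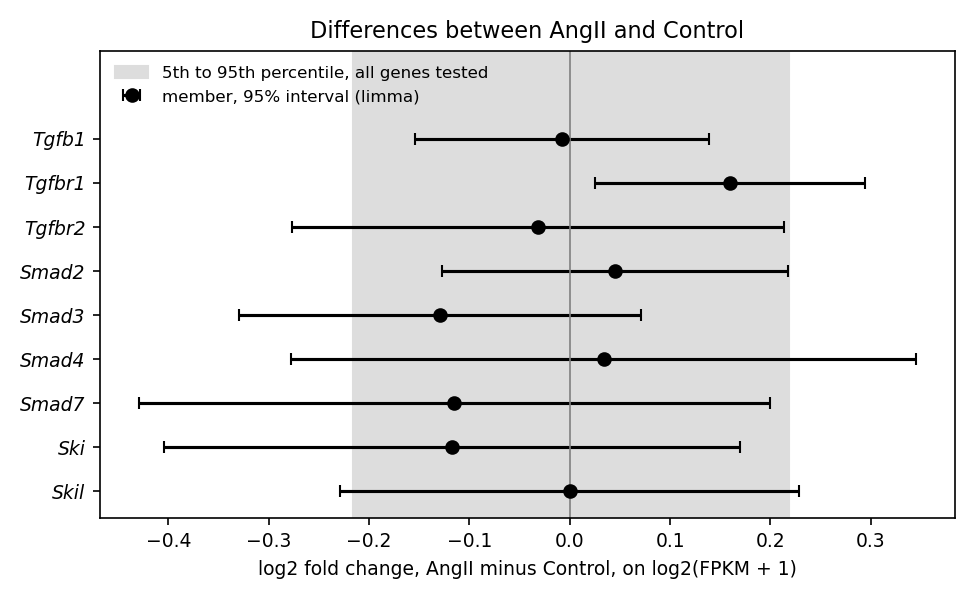
Log2 fold change of each gene (x axis, AngII minus Control on log2(FPKM + 1)) with its 95% interval from limma; the grey band spans the 5th to the 95th percentile of all 11842 genes tested, -0.22 to 0.22. All 9 points lie inside the band, and the interval of Tgfbr1 alone lies above 0.

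Ordered by mean level, the members ran Tgfb1, Tgfbr2, Smad7, Ski, Smad4, Smad2, Smad3, Skil and Tgfbr1. Each neighbour in this order stood apart over all 6 libraries except for 2 pairs. Smad7 and Ski overlapped (75.1 and 69.3 FPKM on average), with Smad7 above Ski in 5 of 6 libraries. Smad3 and Skil overlapped as well (23.0 and 19.8 FPKM), with Smad3 higher in 5 of 6. The coefficient of variation over the 6 libraries ran from 3.64% for Tgfb1 to 12.3% for Smad7, with Smad2 (5.41%) and Tgfbr1 (6.89%) also steady and Smad4 (11.1%) and Ski (10.7%) at the upper end.

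The low values gathered in a pair of libraries, 1 from each group. AngII replicate 2 was the lowest of the 6 libraries for 5 members (Tgfb1, Tgfbr2, Smad3, Smad4 and Ski) and Control replicate 3 for the other 4 (Tgfbr1, Smad2, Smad7 and Skil). Over all genes tested these libraries held the lowest value for 29.8% and 16.7%, together 46.5%. The pair was picked from the members' own lowest values, so the members lie in it by definition and the joint share is no even comparison. Control replicate 1 was highest for 4 members (Tgfbr2, Smad7, Ski and Skil) and AngII replicate 3 for 3 (Tgfbr1, Smad2 and Smad4). They held the highest value for 15.7% and 18.6% of all genes tested. The median deviation of the members from their own means was -0.10 in Control replicate 3 and -0.14 in AngII replicate 2 on the log2 scale, where all genes had -0.01 and -0.02.

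The summed level of 9 CD4 T cell markers (Cd3e, Lck and others, none at 0 in any library) was lowest in the same libraries. It came to 2448, 2398 and 2114 FPKM in Control against 2186, 2102 and 2299 in AngII. Macrophage markers were highest in them, at 2818 in AngII replicate 2 and 1976 in Control replicate 3, against 1159 to 1614 in the other libraries. Divided by the T cell marker sum, 7 of 9 members varied less, among them Smad7 (6.06% in place of 12.3%) and Tgfbr2 (4.54% in place of 8.25%). Of all genes tested, 34% varied less on that scale. Tgfb1 and Tgfbr1 varied more on that scale, at 7.94% and 10.2%. What part the cell mixture has in these levels was not tested.

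The Tgfbr1 difference was as large without these libraries and on that scale. With both Control replicate 3 and AngII replicate 2 left out its log2 fold change was 0.16 (limma adjusted p = 0.471), and with each library scaled to the T cell markers it was 0.23 (limma adjusted p = 0.983), where all genes shifted by 0.07. Both settings were chosen after the data were seen. Per 1000 FPKM of the markers, Tgfbr1 was at 5.16, 5.05 and 5.69 in Control against 6.32, 6.42 and 6.15 in AngII, still without overlap. Smad2 read 12.1, 12.3 and 12.9 in Control against 13.3, 13.4 and 13.9 in AngII on this scale, also without overlap, with a limma adjusted p of 0.983. The scaling moves all genes towards AngII: on it 7.61% of them lay higher in AngII without overlap and 0.768% lower, and the shift of 0.07 common to all genes makes up most of the Smad2 difference of 0.12. Platelets are a known source of TGF-beta. Their 10 summed markers came to 96.9, 112 and 297 FPKM in Control against 248, 187 and 222 in AngII. Tgfb1 in the same order of libraries read 138.4, 140.1 and 149.0 FPKM in Control and 140.7, 136.5 and 148.0 in AngII. Whether platelet RNA adds to Tgfb1 was not tested.

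**Figure D4:**
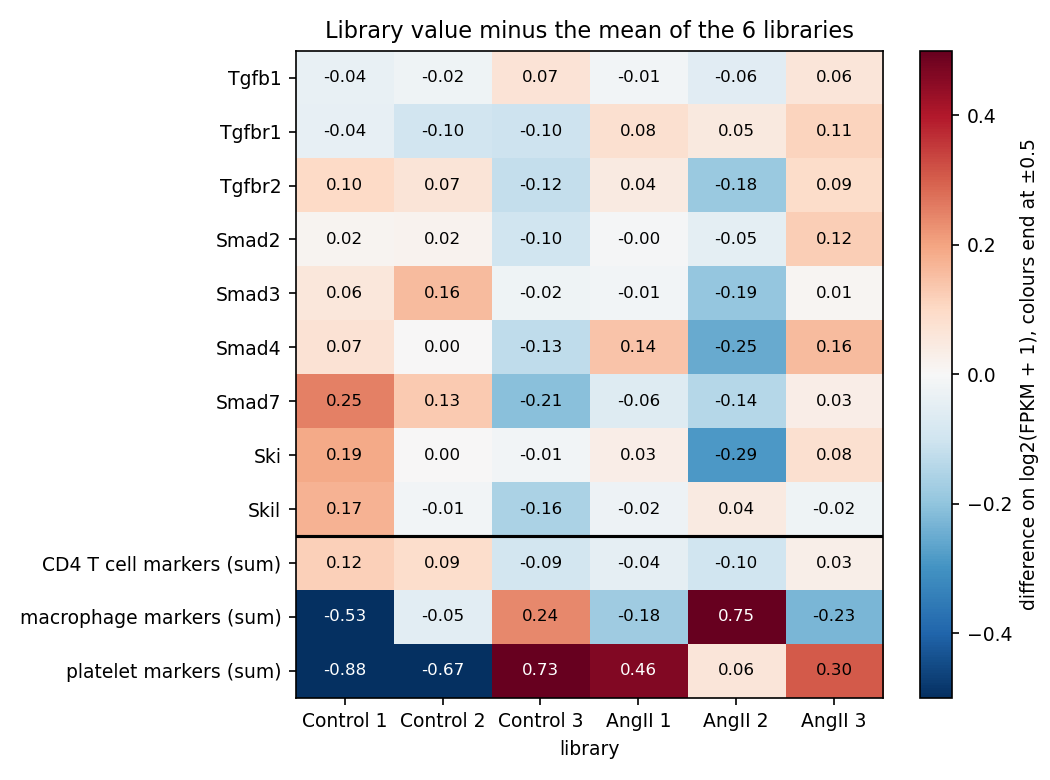
Difference of each library from the mean of the 6 libraries on the log2(FPKM + 1) scale, for the 9 genes and, below the line, for 3 summed marker lists (rows), by library (columns); red is above and blue below the mean. Control 3 and AngII 2 are below the mean for 8 and 7 of the 9 genes and for the CD4 T cell markers, and above it for the macrophage markers. In these libraries 54.6% and 55.2% of all genes tested were below their own mean.

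Outside the 9 members, 90 further pathway genes were looked up, of which 69 passed the filter of 1 FPKM. None passed limma in either direction, 1 had an unadjusted p under 0.05, 2 lay without overlap higher in AngII and 1 lower, and their median log2 fold change was -0.02. These shares are near those of all genes.

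The genes that hold TGF-beta latent or release it were mostly low. Of 13, 6 were tested and 0 passed, with a median log2 fold change of 0.06. Lrrc32, which encodes the GARP protein that docks latent TGF-beta on regulatory T cells, averaged 8.60 ± 0.578 FPKM over Control and 9.74 ± 0.334 over AngII libraries (SD, n = 3). Its groups did not overlap, and its log2 fold change was 0.16 (limma adjusted p = 0.9999). Foxp3, the factor of those cells, was at 28.3 ± 2.02 and 26.6 ± 1.59 FPKM. Thbs1, a platelet and matrix protein that can release the ligand, was at 3.50 ± 2.33 and 5.44 ± 1.22, and Itgav, an integrin chain that also can, at 7.72 ± 1.15 and 8.33 ± 0.440. The groups of Thbs1 and Itgav overlapped.

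Among 12 other receptors, 7 were tested and 0 passed (median log2 fold change 0.09). Acvrl1, a type I receptor best known from endothelium, was at 16.5 ± 1.26 and 18.5 ± 1.03 FPKM, and Acvr1b, a type I receptor for activin, at 13.3 ± 1.23 and 14.4 ± 2.03 (Control and AngII, SD, n = 3). Eng, a co-receptor, was at 2.61 ± 0.944 and 3.11 ± 0.301. The groups of all of them overlapped. Summed markers of stromal and endothelial cells ran from 52.6 to 58.0 FPKM in Control and from 57.6 to 59.9 in AngII.

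Of 24 genes that act on the receptors or SMADs, 22 were tested and 0 passed (median -0.02, 10 above 0 and 12 below). Tgif1, a SMAD corepressor, averaged 41.6 ± 2.13 FPKM over Control and 36.3 ± 5.97 over AngII libraries. Fkbp1a, which keeps the type I receptor quiet, was at 124 ± 5.08 and 115 ± 8.31, and Wwp1, a ubiquitin ligase, at 12.2 ± 0.257 and 14.0 ± 2.14 (SD, n = 3). Usp11, a deubiquitinase, singled out after its values were seen, did not overlap between the groups, with 4.87 ± 0.103 FPKM in Control against 4.52 ± 0.0943. Its log2 fold change was -0.09 (limma adjusted p = 0.9999).

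Of 10 transcription partners of SMADs, 9 were tested and 0 passed (median 0.03). Runx1 was at 30.8 ± 1.98 and 34.9 ± 4.20 FPKM, Zeb1 at 12.7 ± 0.660 and 13.2 ± 0.465, and Zeb2 at 6.03 ± 1.42 and 6.82 ± 1.38 (SD, n = 3). All 6 genes of the TAK1 branch, through which the receptors signal without SMADs, were tested and 0 passed (median 0.06). Tab1, an activator of the TAK1 kinase, read 5.27, 4.601 and 5.16 FPKM in Control against 5.42, 6.42 and 6.21 in AngII, without overlap (log2 fold change 0.22, limma unadjusted p = 0.0489, adjusted p = 0.9999). Xiap and Tab2 had log2 fold changes of 0.07 and 0.06, with overlapping groups.

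The listed genes that TGF-beta is known to induce gave no common direction. Of 14, 11 were tested, 4 had values above 0 and 7 below (median log2 fold change -0.06), and 0 passed. Smad7, itself induced by the pathway, is counted with the members and not in this list. Tgif1, Pmepa1 and Ldlrad4 are also counted among the genes that act on the receptors or SMADs. Ccr8, a chemokine receptor, averaged 8.70 ± 1.33 FPKM over Control and 7.36 ± 1.05 over AngII libraries (SD, n = 3).

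Genes that TGF-beta is known to repress in T cells had values below 0 in 9 of 9 tested (Il2 was under the filter), with a median log2 fold change of -0.13 beside -0.004 for all genes, of which 52% were below 0, and 0 passed limma. The count rests on single libraries and on the scaling. Leaving out AngII replicate 2 gave 5 of 9, leaving out Control replicate 3 gave 7 of 9, and leaving out both gave 2 of 9 with a median of 0.03. With library weights it was 6 of 9, and scaled to the CD4 T cell markers 6 of 9, with Tbx21, Gata3 and Myc above 0. Ifng, the Th1 cytokine, read 24.7, 29.8 and 28.5 FPKM in Control against 13.5, 28.3 and 16.8 in AngII, a log2 fold change of -0.54 (95% interval -1.17 to 0.09, limma adjusted p = 0.9999). Gzma, a cytotoxic granule enzyme, was at 38.0 ± 13.2 and 27.9 ± 8.71 FPKM, and Eomes, a factor of cytotoxic cells, at 6.44 ± 0.798 and 5.78 ± 0.322 (SD, n = 3). The groups overlapped for each of the 9 genes. Several of these genes are also made by CD8 T and NK cells, whose 6 summed markers ran from 118 to 169 FPKM in Control and from 121 to 141 in AngII, with none at 0. Their part in the values was not tested.

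**Figure D5:**
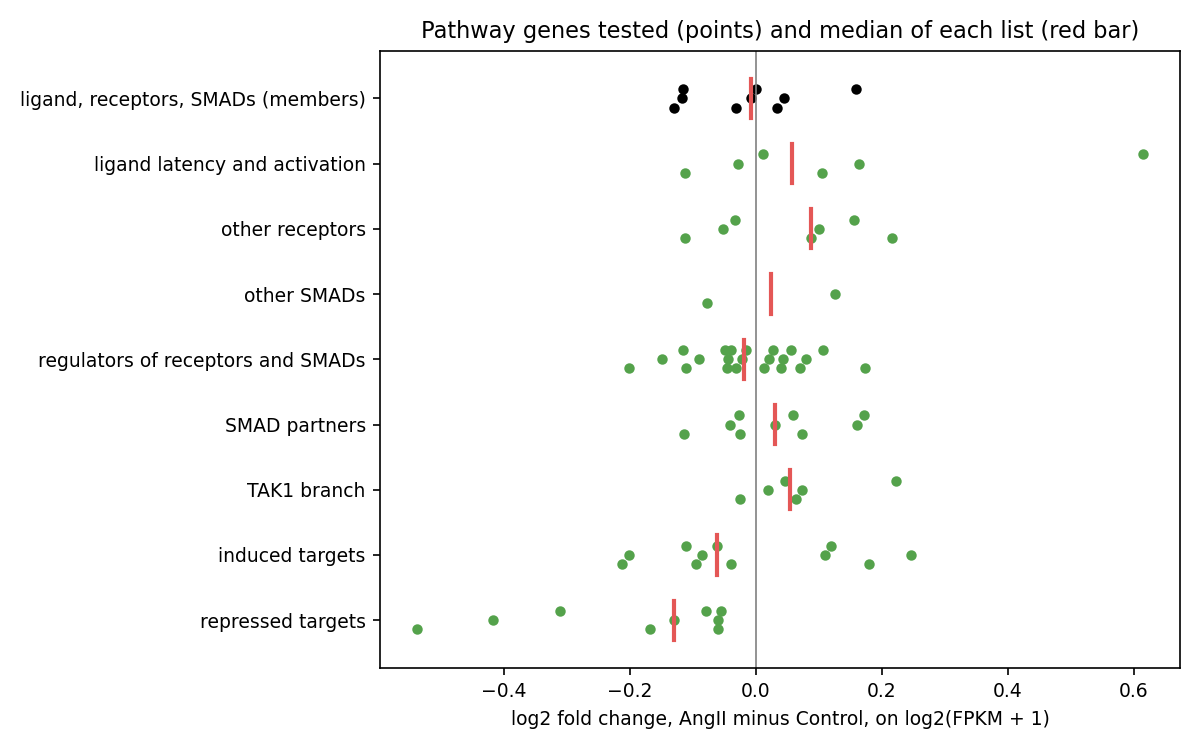
Log2 fold change (x axis, AngII minus Control on log2(FPKM + 1)) of each tested gene (points) in the 9 members (black) and 8 further pathway lists (green), with the median of each list as a red bar. No point passed the test, and the 9 repressed targets lie below 0 with all 6 libraries, from -0.54 to -0.05.

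Some genes traced the members closely over the 6 libraries, among 6101 protein-coding genes averaging 10 FPKM or more. The likeness is Pearson's r of log2(FPKM + 1) over 6 libraries, given as a description, since many genes reach high values with so few points. For Tgfbr1 the closest were Bach1 (r = 0.97), Hsd17b11 (0.96) and Klhl5 (0.95), and 3 genes reached 0.95. For Smad4 the closest was Cyb561d1 (r = 0.9985) and 280 genes reached 0.95, for Tgfbr2 it was Usp38 (0.997) with 187 genes, and for Ski it was Tnrc6a (0.998) with 97. Smad4, Tgfbr2 and Ski, low in AngII replicate 2, had more such genes than the other members. How many a typical gene has was not counted. For Tgfb1 the closest was Plin3 (0.985) with 14 genes, for Smad7 Itpr2 (0.997) with 46, for Smad3 Psmd5 (0.994) with 29, for Smad2 Zfp598 (0.989) with 19 and for Skil Mybbp1a (0.986) with 19.

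By position, 3 of the 4 SMAD genes lie together on chromosome 18, Smad4, Smad7 and Smad2 within 2.67 Mb. Tgfbr2 and Smad3 share chromosome 9, and Tgfbr1 (chromosome 4, 47353222 to 47414931, plus strand, 5 annotated transcripts) and Ski share chromosome 4. Skil is on chromosome 3. The 3 neighbours on chromosome 18 did not move as 1 group, with log2 fold changes of 0.03, -0.11 and 0.05. In the authors' deposited table all 9 members were tested and none was significant, with q = 0.999918 for each and p from 0.1652 (Smad7) to 0.99605 (Skil).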

How the data were processed

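Libraries were made from CD4+ T cells of 6 mice with an Illumina TruSeq kit, per the labels' protocols. Per the submitters' processing notes, the authors used Trimmomatic 0.32, TopHat2 2.1.1, Cuffdiff and genome build GRCm38.p3. No source used here gives the Cuffdiff version or any setting. The deposited values are FPKM per gene and library. A deposited table of the authors' own test adds p-values and q-values per gene, but its conditions carry only numbers, so no direction was taken from it. Positions are from GENCODE M21 (GRCm38) and promoters from RefSeq (GRCm38.p6).

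FPKM was tested as log2(FPKM + 1) for genes whose mean reached 1 FPKM, with limma 3.58.1 in R 4.3.3 (eBayes with trend, two-sided), Benjamini-Hochberg adjusted over all genes, on code checked with simulated data. A pseudocount of 1 understates changes of low genes. Python 3.11.15, pandas 2.3.3, numpy 2.4.6 and matplotlib 3.10.9 were used. Alternatives were pseudocounts of 0.1 and 5, no filter or 5 FPKM, median-of-ratios and quantile scaling, eBayes without trend, library weights, a replicate block and leaving out each library. Beside the members, the genes named are, from each list, any past the threshold and the 3 of smallest p, and the closest genes by Pearson's r. Usp11 and the low family members were named after their values were seen. The count of repressed targets in each setting, and the all-gene shares on the marker scale, were added after the data were seen. The members and lists were chosen with earlier results of these data known. No set of genes was tested as a group.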

Additional observations from a re-analysis of the deposited data

How the results depend on the processing

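In 17 alternatives, 0 of the 9 members passed limma; the lowest adjusted p was 0.275, for Tgfbr1 with library weights. Tgfbr1, Smad3 and Smad7 kept their direction in all 17; with 1 library left out Smad3 ran from -0.17 to -0.066 and Smad7 from -0.25 to -0.017. The count of genes past the threshold, 4 in the main setting, was 7 with no filter on low values and ran from 4 to 9 with 1 library left out. Small differences changed sign. Skil was at 6.7e-05 with a pseudocount of 0.1, 0.0066 with median-of-ratios scaling, 0.0068 with quantile normalization and 0.074 scaled to the CD4 T cell markers. Tgfb1 was at 0.017 with quantile normalization, 0.033 with library weights, 0.051 without both Control 3 and AngII 2, and 0.069 scaled to the markers. Tgfbr2 was at 0.0054, 0.0091 and 0.045 with quantile normalization, library weights and marker scaling, and Ski at 0.0082 with library weights. With 1 library left out, log2 fold changes ran from -0.080 to 0.086 (Skil), -0.0051 to 0.082 (Smad2), -0.037 to 0.17 (Smad4), -0.039 to 0.025 (Tgfb1) and -0.099 to 0.053 (Tgfbr2); the cause was not tested. Tgfbr1 ran from 0.14 to 0.18, and its unadjusted limma p lay above 0.05 without Control 2 (0.0926), Control 3 (0.0750), AngII 1 (0.0792) or AngII 3 (0.0971) and with the block (0.0628; adjusted p at least 0.9998 in each).

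Replicate numbers are shared by the groups, and the labels do not say whether a shared number means a pairing. Deviations of same-numbered libraries from their group means had correlations of -0.080, -0.023 and -0.035. With 3 libraries per group these values cannot decide whether the libraries were paired. With the replicate block 3 genes and 0 members passed, and Tgfbr1 was at 0.16 (limma adjusted p = 0.9998). The number of libraries and the unstated fragment totals limit precision: the median 95% interval reached 0.263 to either side over all genes. No other row shared a member's name, so the alternative of another row could not be run.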
